A study of Rattus norvegicus with 15 samples.

Results

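The genes described here belong to the solute carrier families that move amino acids across membranes: Slc1, Slc3, Slc6, Slc7, Slc36, Slc38 and Slc43. They were chosen by symbol, Slc7a11 left out, and by an expression level of at least 1 FPKM in at least 5 of 15 libraries. FPKM counts sequenced fragments per length of transcript and per size of the library. By name 61 of the 22250 genes in the table matched, and 39 of them passed the level filter, out of 13172 genes that did. RNA came from the lungs of wild-type rats, sequenced as 5 libraries for each of 3 groups. WDD rats were exposed by the tracheal route to LPS (lipopolysaccharide, from the outer membrane of bacteria) and smoke, and were given Wendan Decoction, a traditional Chinese herbal formula, into the stomach. COPD rats had the same tracheal exposure and no decoction, to model the chronic obstructive lung disease that smokers develop. Control rats were normal. The sources used here do not give strain, age, doses or durations. The labels do not state that the libraries of a group are from different animals, so p-values measure only the spread between these samples, which may be technical.

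Amino acids cannot cross a lipid membrane, and each cell takes them up through carriers that differ in substrate, ion coupling and direction. Many Slc7 proteins are light chains that reach the cell surface only when bound to a heavy chain, Slc3a2 or Slc3a1, and they exchange one amino acid for another. Carriers of the Slc1, Slc6 and Slc38 families are driven mostly by sodium, and some of those of Slc36 by protons. In lung, such carriers supply glutamine and leucine for growth signalling, arginine for nitric oxide and arginase, and cystine and glycine for glutathione. Some carriers of these families do not move amino acids: Slc6a4 and Slc6a2 clear serotonin and noradrenaline, which lung vessels remove from the blood, Slc6a8 takes up creatine, and Slc43a3 carries purine bases. The symbol Slc7a6os also matched the pattern but names a gene on the strand opposite Slc7a6 that encodes no carrier.

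The groups differed over whole libraries as well. The share of all FPKM on the mitochondrial genome was 21.7% ± 2.90 in WDD, 44.9% ± 12.4 in COPD and 8.11% ± 1.94 in control lungs (mean ± SD, n = 5 each). Each pair of groups differed with p = 0.00794 in a two-sided exact permutation test, the smallest that 5 against 5 allows. Long housekeeping transcripts (29) stood below short ones (40) by a median log2(FPKM + 1) difference of -3.17 ± 0.34 in WDD, -3.54 ± 0.57 in COPD and -1.35 ± 0.45 in control lungs. This difference had p = 0.00794 for both exposed groups against control and p = 0.238 for WDD against COPD lungs (exact permutation test). The part of this shift in the values of single carriers was not tested. Cell markers moved too. All 14 tested neutrophil genes were higher in COPD than in control lungs, with summed levels of 15240 to 50451 FPKM against 173 to 261 FPKM. Of 11 endothelial genes 9 were lower, with sums of 366 to 1030 FPKM in COPD and 1801 to 2850 FPKM in control lungs, and Cldn5 was at 0 throughout. All 13 alveolar type 1 genes, 8 of 11 alveolar type 2 genes, 9 of 13 macrophage genes, all 10 smooth muscle genes and 11 of 12 T cell genes were lower as well, and 1 macrophage gene was higher. After median-of-ratios scaling 3 alveolar type 2 genes were higher and 7 lower. Of 7 airway genes, 4 were lower and 1 was higher. Among all 13172 genes tested, 66.4% were called lower and 8.23% higher in this comparison. The lower counts of macrophage, alveolar type 2 and airway genes lay near that share of all genes. As a check of the tissue label, the alveolar type 2 markers summed to at least 4929 FPKM in every library, and the 7 kidney and gut markers summed to at most 3.11 FPKM. In bulk tissue, fewer cells of a type and less RNA per cell cannot be told apart. The part of these cell types in the values below was not tested.

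The RefSeq promoter table, on build GRCr8, held 34 start sites for 30 of the 39 genes. It had no entry for Slc1a1, Slc1a5, Slc38a10, Slc43a3, Slc6a2, Slc6a20, Slc6a4, Slc7a2 and Slc7a4. Each window covers 250 bases before to 50 bases after a start. The letters TGATGNAA, the core of the element bound by ATF4 when amino acids are scarce, were searched on both strands. They occurred in 3 of the 34 windows, those of Slc1a4, Slc38a1 and Slc7a1, against 3.98% of all 33469 windows. The AP-1 letters TGACTCA occurred in 2 windows, those of Slc3a1 and Slc6a14, against 4.63% of all windows. Median GC content was 57.8% in the carrier windows and 51.7% in all windows, with a median of 15 and 7 CpG pairs. A match of letters is a description and no evidence of binding. The 5 windows below belong to genes with contrasting values in the next paragraphs, with TGATGNAA or its reverse complement in capitals where present. Values were quantified on Rnor_6.0, so these positions serve only to place the sequences.
Slc7a10, chr1:96965872-96966171, plus strand, lowest in COPD lungs and near control levels in WDD lungs: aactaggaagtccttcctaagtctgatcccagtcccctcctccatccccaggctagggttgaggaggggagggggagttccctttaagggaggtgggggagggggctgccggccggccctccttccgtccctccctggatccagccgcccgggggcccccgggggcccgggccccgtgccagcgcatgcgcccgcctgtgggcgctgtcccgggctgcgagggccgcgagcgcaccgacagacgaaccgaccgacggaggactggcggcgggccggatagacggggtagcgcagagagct
Slc1a4, chr14:98761513-98761812, minus strand, with intermediate levels in WDD lungs: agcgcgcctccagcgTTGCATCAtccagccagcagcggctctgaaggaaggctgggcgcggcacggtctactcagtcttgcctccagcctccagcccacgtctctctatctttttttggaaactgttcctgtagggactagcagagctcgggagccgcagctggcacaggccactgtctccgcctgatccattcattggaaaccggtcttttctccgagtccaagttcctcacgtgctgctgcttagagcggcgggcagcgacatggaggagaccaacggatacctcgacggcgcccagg
Slc6a6, chr4:125752252-125752551, plus strand, low in both exposed groups: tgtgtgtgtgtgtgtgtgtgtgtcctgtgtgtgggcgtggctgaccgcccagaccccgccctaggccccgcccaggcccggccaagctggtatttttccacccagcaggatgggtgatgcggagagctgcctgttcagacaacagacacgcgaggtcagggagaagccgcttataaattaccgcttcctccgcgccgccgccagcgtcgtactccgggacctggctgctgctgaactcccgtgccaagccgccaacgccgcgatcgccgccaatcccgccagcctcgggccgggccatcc
Slc7a5, chr19:66872363-66872662, minus strand, lowest in WDD lungs: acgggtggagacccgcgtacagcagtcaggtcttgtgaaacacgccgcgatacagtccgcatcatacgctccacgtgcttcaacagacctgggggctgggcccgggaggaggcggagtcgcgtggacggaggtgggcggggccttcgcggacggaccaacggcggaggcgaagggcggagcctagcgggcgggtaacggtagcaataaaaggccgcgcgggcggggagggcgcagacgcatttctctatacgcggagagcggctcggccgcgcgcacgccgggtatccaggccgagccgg
Slc7a1, chr12:11664238-11664537, plus strand, also lowest in WDD lungs: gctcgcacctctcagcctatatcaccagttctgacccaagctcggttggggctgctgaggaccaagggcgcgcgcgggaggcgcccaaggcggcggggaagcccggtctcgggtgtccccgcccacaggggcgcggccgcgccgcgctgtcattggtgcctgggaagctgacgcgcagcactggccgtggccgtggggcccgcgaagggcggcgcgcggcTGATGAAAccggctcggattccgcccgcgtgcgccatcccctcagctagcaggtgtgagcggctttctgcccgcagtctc

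COPD against control lungs compares exposed with normal rats. Of the 39 genes, 32 fell, none rose and 7 (Slc3a2, Slc38a2, Slc6a14, Slc6a20, Slc7a1, Slc7a5 and Slc7a7) did not pass an adjusted p of 0.05 in limma, at log2 fold changes from -3.40 to 0.30. Across all 13172 genes, 66.4% were called lower, 8.23% higher and 74.7% in either direction. In 23 of the 39 genes all COPD libraries lay below all control libraries and in none above, against 52.3% and 3.99% of all genes. The median log2 fold change was -1.12 for the 39 genes and -0.81 for all genes. After median-of-ratios scaling, which brings the median of all genes to -0.05, 20 were lower and 3 higher, and all genes split into 4256 lower and 3977 higher, against 8749 and 1084 as deposited. The level filter bears on these counts, since 7 of the genes (Slc1a2, Slc36a1, Slc6a16, Slc7a15, Slc1a7, Slc36a4 and Slc7a4) reached 1 FPKM in no COPD library and passed only through the other groups. Just inside the filter stood Slc1a2, at 1 FPKM or more in 6 libraries, and just outside it Slc38a4, in 1 library.

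WDD against COPD lungs compares exposed rats with and without the decoction. Here 21 of the 39 genes rose, 2 fell and 16 did not pass, against 57.1% higher, 6.63% lower and 63.8% in either direction among all genes. The level filter bears on the rises too. Slc1a2, Slc6a16, Slc7a15, Slc1a7, Slc36a4 and Slc7a4, all among the 21, reached 1 FPKM in no COPD library. They passed only through the WDD and control groups, where they were higher. Cell markers moved in this comparison too, with all 14 neutrophil genes lower (median -4.34) and 13 of 13 alveolar type 1, 8 of 11 alveolar type 2, 10 of 11 endothelial and 11 of 12 T cell genes higher. Higher as well were 7 of 13 macrophage, 5 of 7 airway and 8 of 10 smooth muscle genes, beside 57.1% of all genes, and 1 macrophage gene was lower. The part of these cell types in the carriers' values was not tested. All WDD libraries lay above all COPD libraries in 16 of the 39 genes and below in 2, against 40.6% and 4.43% of all genes. The median was 0.54 for both the 39 genes and all genes. After median-of-ratios scaling 11 were higher and 6 lower, and all genes split into 3073 higher and 2819 lower. Between WDD and control lungs 19 fell, none rose and 20 did not pass, against 31.0% lower, 6.35% higher and 37.3% in either direction among all genes, with a median of -0.65 for the 39 genes and -0.23 for all genes. All WDD libraries lay below all control libraries in 20 of the 39 genes and above in none, against 31.4% and 6.76% of all genes. After median-of-ratios scaling 13 of the 39 genes were lower and none higher here, and all genes split into 2100 higher and 2224 lower. These comparisons share libraries, so their values are given side by side below and are not independent.

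**Figure D1:**
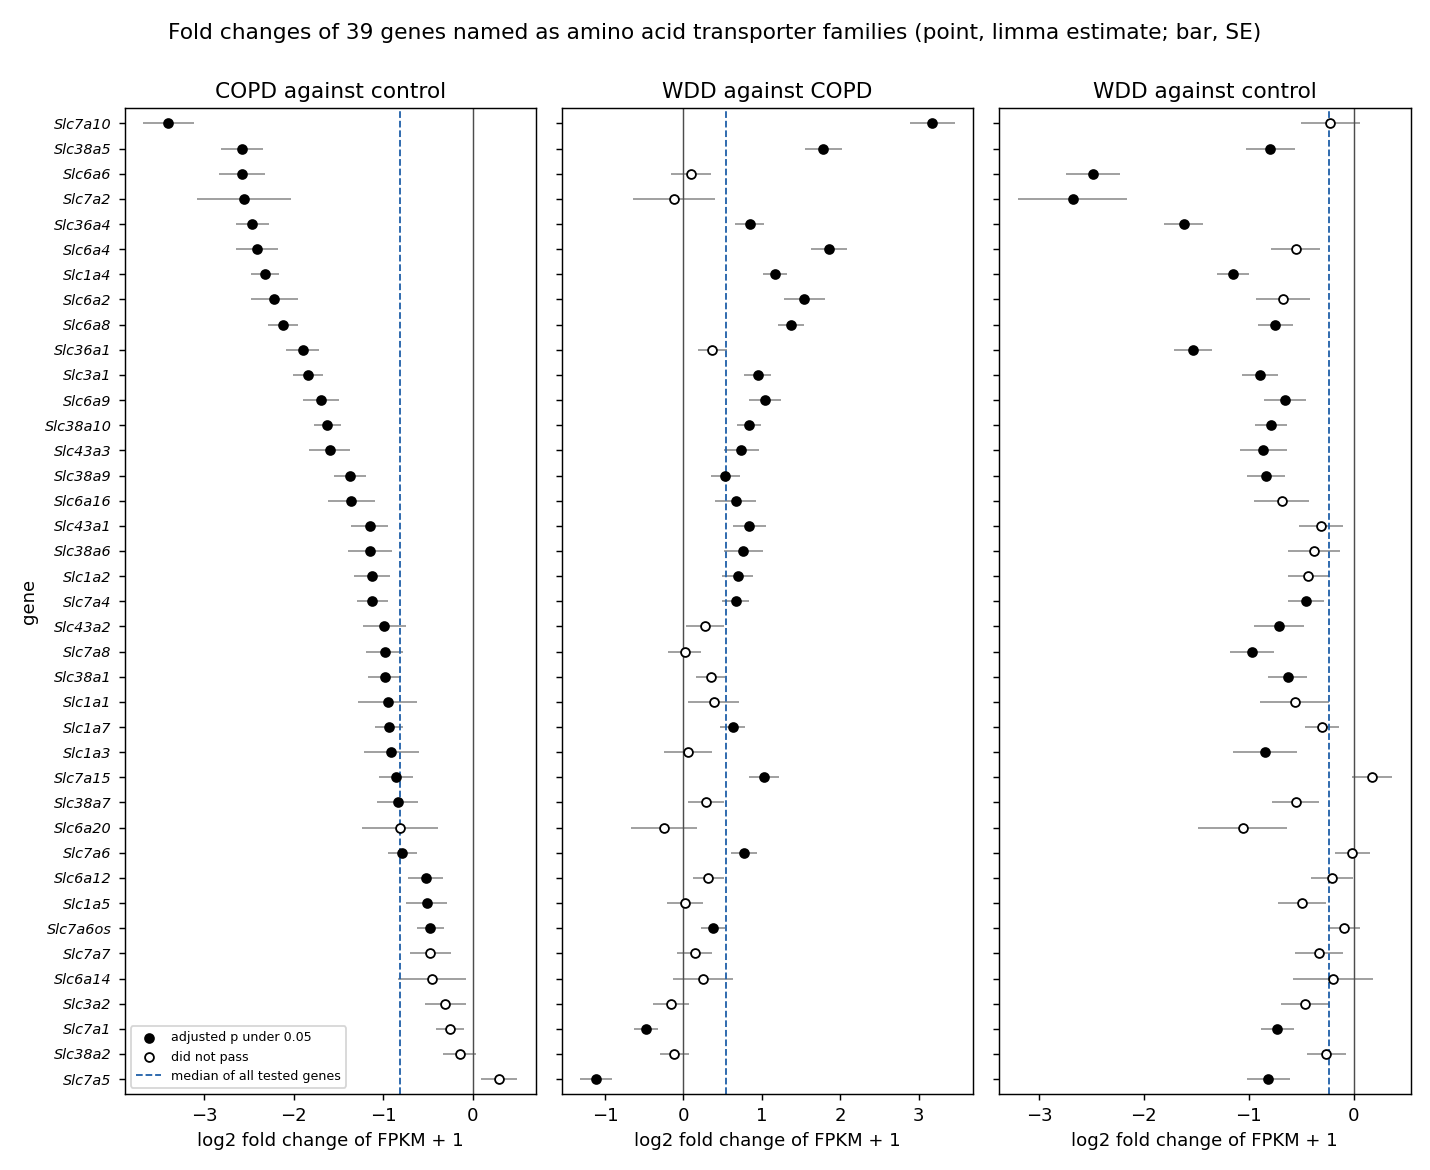
Log2 fold change of FPKM + 1 for the 39 genes in each comparison, with the limma estimate as a point, its SE as a bar, filled points for an adjusted p under 0.05 and a dashed line at the median of all tested genes. The lowest points against control are Slc7a10 at -3.40 in COPD lungs and Slc7a2 at -2.68 in WDD lungs, and Slc7a5 has the lowest value in WDD against COPD at -1.11.

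Among the partners of the Slc7 light chains, the widely expressed heavy chain Slc3a2 had the highest mean of the 39 genes in each group. Slc3a2 is given by library although outside the rule for genes shown that way. It stood at 108, 107, 83.8, 80.9 and 88.2 FPKM in WDD lungs, at 65.6, 168, 137, 128 and 63.1 FPKM in COPD lungs and at 126, 141, 125, 126 and 125 FPKM in control lungs. The COPD libraries spread on both sides of the controls, with COPD 1 and COPD 5 low, whereas every WDD library lay below every control library. No comparison passed (log2 fold changes of -0.30 ± 0.23, -0.16 ± 0.23 and -0.47 ± 0.23 for COPD against control, WDD against COPD and WDD against control, ± SE). After median-of-ratios scaling Slc3a2 was higher in COPD than in control lungs, at 0.63 (adjusted p = 0.00352, limma), and lower in WDD than in COPD lungs, at -0.81 (adjusted p = 0.000941, limma). After scaling without mitochondrially encoded genes it was lower in WDD than in COPD lungs (-0.52) and than in control lungs (-0.62), and under quantile normalisation lower in WDD than in control lungs (-0.58), all called. The other heavy chain, Slc3a1, which serves cystine and basic amino acid uptake in kidney and gut, averaged 3.41 ± 0.683 FPKM in WDD, 1.32 ± 0.610 FPKM in COPD and 7.12 ± 0.735 FPKM in control lungs (SD, n = 5 each). It fell by 1.84 ± 0.17 in COPD against control lungs and rose by 0.95 ± 0.17 in WDD against COPD lungs, where the groups did not overlap. The rise was not called under quantile normalisation (0.33). Its best known partner Slc7a9 did not pass the level filter, with at most 0.458 FPKM in any library.

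Slc7a10, a light chain that exchanges small neutral amino acids including D-serine, had the largest differences of the 39 genes in COPD against control and in WDD against COPD lungs. Its levels were 40.3, 32.0, 18.7, 24.7 and 30.2 FPKM in WDD lungs, 0.387, 3.94, 2.09, 3.48 and 2.74 FPKM in COPD lungs and 37.7, 36.8, 31.6, 33.0 and 27.7 FPKM in control lungs. COPD libraries lay below all others without overlap, and WDD and control libraries overlapped. Slc7a10 fell by 3.40 ± 0.28 in COPD against control lungs (adjusted p = 3.31e-08, limma) and rose by 3.18 ± 0.28 in WDD against COPD lungs (adjusted p = 3.06e-07, limma). Between WDD and control lungs the log2 fold change was -0.22 ± 0.28 and did not pass. Across the 4 scalings tried, the first value ranged from -3.40 to -2.64 and the second from 2.56 to 3.18.

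Slc7a5, the light chain that brings leucine and other large neutral amino acids into dividing and activated cells, went another way. It stood at 2.91, 2.57, 2.58, 3.07 and 3.13 FPKM in WDD lungs, at 3.80, 9.69, 6.72, 6.55 and 12.1 FPKM in COPD lungs and at 5.89, 6.31, 5.90, 5.68 and 5.06 FPKM in control lungs. Every WDD library lay below every library of both other groups, and COPD libraries lay on both sides of the controls. Slc7a5 fell by 1.11 ± 0.20 in WDD against COPD lungs (adjusted p = 0.000227, limma) and by 0.81 ± 0.20 in WDD against control lungs (adjusted p = 0.00509, limma). In COPD against control lungs it had 0.30 ± 0.20 and did not pass. That value was called without COPD 1 (0.49) and after each of the 3 other scalings, at 0.47 to 1.26, each with higher levels in COPD lungs. The fall in WDD against control lungs was not called under quantile normalisation (-0.38, adjusted p = 0.106, limma).

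Slc7a8, which carries neutral amino acids in epithelia, averaged 3.64 ± 0.512 FPKM in WDD, 3.82 ± 1.72 FPKM in COPD and 8.05 ± 0.783 FPKM in control lungs, and fell by 0.98 ± 0.21 in COPD and by 0.97 ± 0.21 in WDD against control lungs, though in COPD lungs the value was -0.22 with FPKM scaled by median of ratios and 0.04 with quantiles, neither called. Slc7a6, an exchanger of arginine for neutral amino acids, averaged 16.3 ± 1.34 FPKM in WDD, 9.41 ± 2.83 FPKM in COPD and 16.5 ± 1.70 FPKM in control lungs. It fell by 0.78 ± 0.17 in COPD against control lungs, where the value was 0.08 with FPKM scaled by median of ratios and 0.0062 with quantiles, and rose by 0.77 ± 0.17 in WDD against COPD lungs. That rise was not called in the same scalings, at 0.17 and 0.27. Slc7a7, the related exchanger of macrophages and gut, averaged 16.2 ± 1.60 FPKM in WDD, 15.5 ± 6.10 FPKM in COPD and 20.7 ± 3.71 FPKM in control lungs and passed in no comparison. Slc7a6os averaged 12.4 ± 1.23 FPKM in WDD, 9.49 ± 2.25 FPKM in COPD and 13.4 ± 2.02 FPKM in control lungs, and reads of genes on opposite strands may have been shared, since strand use is not given. Slc7a15 averaged 1.67 ± 0.399 FPKM in WDD, 0.313 ± 0.212 FPKM in COPD and 1.43 ± 0.691 FPKM in control lungs. It rose by 1.03 ± 0.19 in WDD against COPD lungs without overlap, but passed the level filter only through the WDD and control groups.

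Within each library, the shares of the 5 Slc3a2 light chains do not depend on a scale factor per library. They do not take out the shift between long and short transcripts given above, whose part in them was not tested. Slc7a10 held 42.1% ± 6.56 of their summed FPKM in WDD, 5.95% ± 2.60 in COPD and 39.5% ± 3.41 in control lungs (SD, n = 5 each). Slc7a5 held 4.23% ± 0.563 in WDD, 19.96% ± 6.63 in COPD and 6.86% ± 0.593 in control lungs, with ranges of 3.64% to 4.87%, 14.7% to 31.3% and 6.27% to 7.67% that do not overlap. Shares of 1 sum are tied, so the low share of Slc7a10 in COPD lungs by itself raises the other shares there. The level of Slc7a5 did not pass in COPD against control lungs on the deposited scale (0.30). Slc7a11, which pairs with the same heavy chain, was not counted. The sum itself was 68.1 ± 8.72 FPKM in WDD, 39.1 ± 10.7 FPKM in COPD and 84.4 ± 7.001 FPKM in control lungs.

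**Figure D2:**
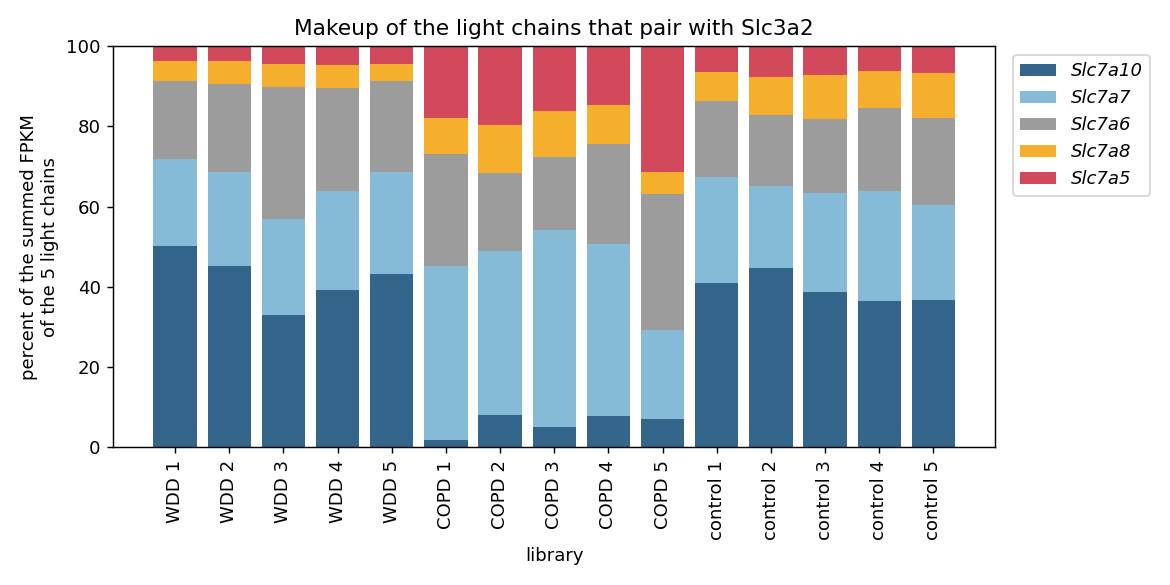
Share of each light chain, in percent of the summed FPKM of the 5 light chains that pair with Slc3a2, as stacked bars for each library of the WDD, COPD and control groups. Slc7a10 averages 5.95% in COPD libraries, 42.1% in WDD and 39.5% in control libraries, and Slc7a5 reaches 31.3% in COPD 5.

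The sodium-independent cationic carriers Slc7a1 and Slc7a2 were lower in WDD than in control lungs. Slc7a1, the housekeeping arginine carrier, had 0.923, 1.02, 1.06, 0.80 and 0.808 FPKM in WDD lungs, 1.16, 1.55, 1.34, 1.56 and 3.07 FPKM in COPD lungs and 2.19, 1.76, 2.32, 2.27 and 2.41 FPKM in control lungs. All WDD libraries lay below all others, and COPD 5 lay above the control range while the other COPD libraries lay below it. Slc7a1 fell by 0.47 ± 0.16 in WDD against COPD lungs (adjusted p = 0.0144, limma) and by 0.73 ± 0.16 in WDD against control lungs (adjusted p = 0.00175, limma), a call against control that ended under quantile normalisation (-0.39). In COPD against control lungs it had -0.25 ± 0.16 and did not pass, and under quantile normalisation it was higher in COPD lungs, at 0.75 (adjusted p = 0.00152, limma).

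Slc7a2, the inducible arginine carrier that feeds nitric oxide synthase and arginase in macrophages and liver, is shown in full although it fell outside the rule for genes given by library. It had 2.56, 1.72, 1.24, 0.789 and 0.904 FPKM in WDD lungs, 0.704, 0.513, 0.505, 0.747 and 15.8 FPKM in COPD lungs and 8.38, 12.8, 13.6, 16.2 and 23.5 FPKM in control lungs. COPD 5 stood at the control level, and all other COPD and all WDD libraries lay below every control. Slc7a2 fell by 2.56 ± 0.52 in COPD (adjusted p = 0.00033, limma) and by 2.68 ± 0.52 in WDD against control lungs (adjusted p = 0.000887, limma). Without COPD 5 the first value was -3.23. Slc7a4, a relative of these carriers with no established transport activity, averaged 1.53 ± 0.280 FPKM in WDD, 0.605 ± 0.287 FPKM in COPD and 2.51 ± 0.781 FPKM in control lungs and was called in all 3 comparisons, with log2 fold changes of -1.12 ± 0.17 in COPD against control, 0.67 ± 0.17 in WDD against COPD and -0.45 ± 0.17 in WDD against control lungs. The last of these calls ended when any 1 of 8 libraries was left out. Slc7a4 passed the level filter only through the WDD and control groups. All 3 calls of Slc7a4 ended under quantile normalisation, at -0.17, 0.08 and -0.09, and those of WDD against COPD (0.40) and WDD against control lungs (-0.25) ended after median-of-ratios scaling.

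**Figure D3:**
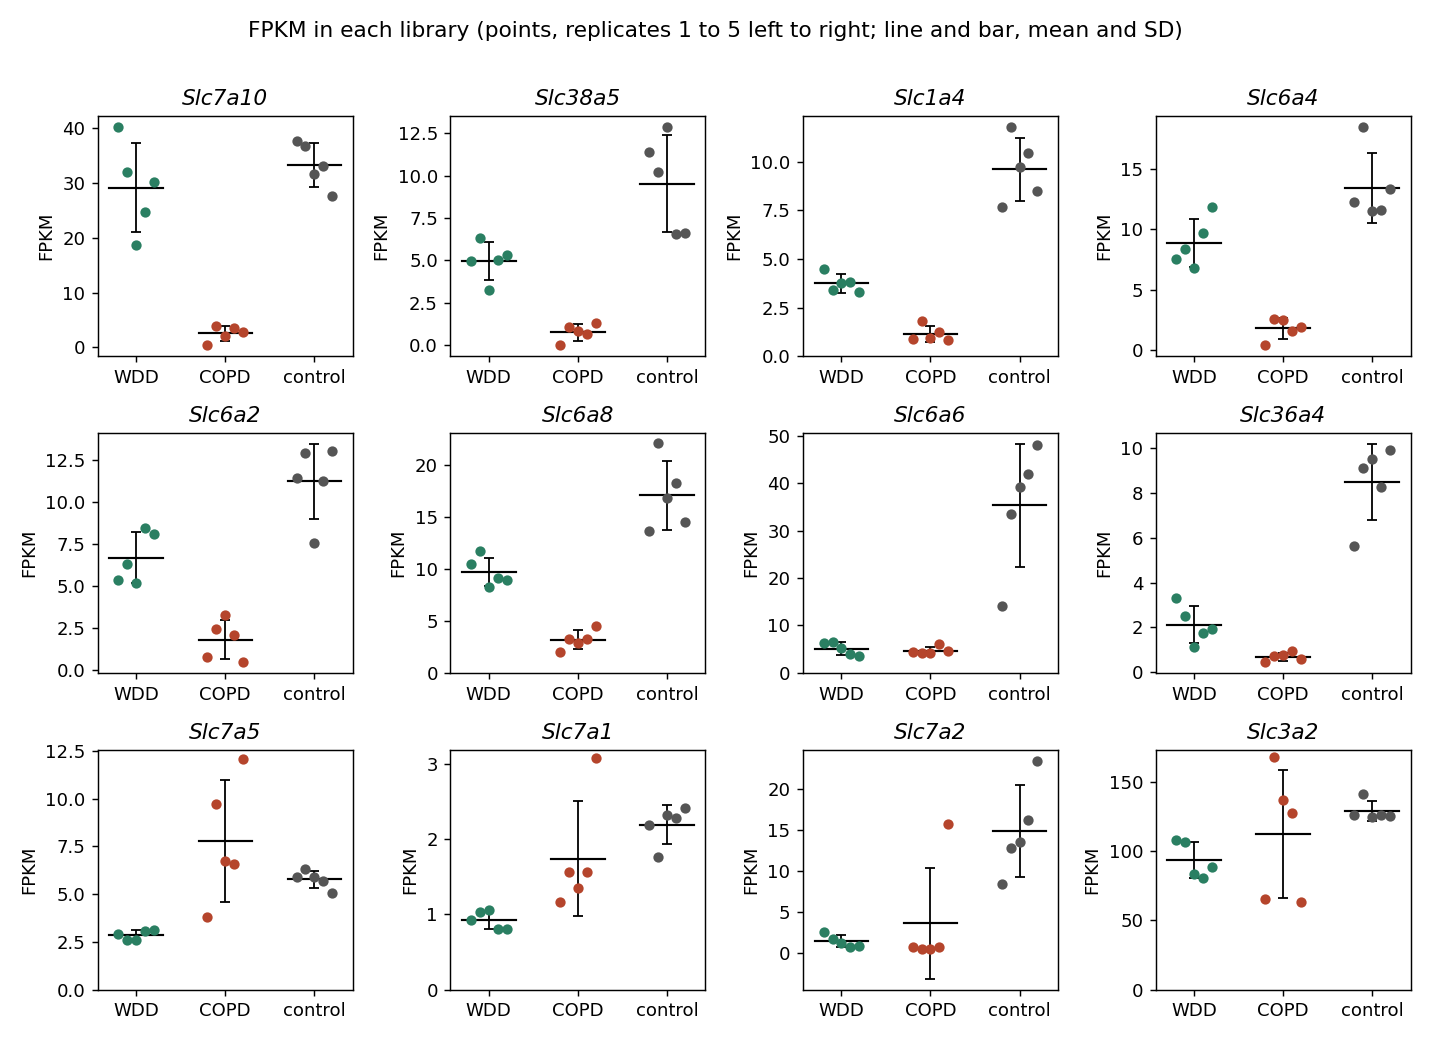
FPKM of 12 genes in each WDD, COPD and control library, with points for replicates 1 to 5, a line at the mean and a bar for the SD (n = 5 per group). Slc7a10 stays at or below 3.94 FPKM in COPD libraries, Slc6a6 at or below 6.53 FPKM in both exposed groups, Slc7a5 is lowest in WDD libraries, and Slc7a2 is at 15.8 FPKM in COPD 5 alone among COPD libraries.

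In the Slc1 and Slc38 families, Slc38a5 and Slc1a4 had the largest falls in COPD against control lungs. Slc38a5, which exchanges glutamine, asparagine and histidine for protons, stood at 4.96, 6.31, 3.27, 5.02 and 5.29 FPKM in WDD lungs, at 0, 1.05, 0.827, 0.663 and 1.30 FPKM in COPD lungs and at 11.4, 10.2, 12.9, 6.54 and 6.61 FPKM in control lungs. The groups did not overlap, with WDD libraries between the others. Slc38a5 fell by 2.58 ± 0.23 in COPD against control lungs (adjusted p = 8.12e-08, limma), rose by 1.79 ± 0.23 in WDD against COPD lungs (adjusted p = 1.18e-05, limma) and fell by 0.79 ± 0.23 in WDD against control lungs (adjusted p = 0.0139, limma). The last call ended in 2 other scalings, with an adjusted p of 0.133 for median of ratios and 0.250 for quantiles (limma).

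Slc1a4, an exchanger of alanine, serine and cysteine, stood at 4.5, 3.39, 3.75, 3.84 and 3.29 FPKM in WDD lungs, at 0.897, 1.82, 0.910, 1.25 and 0.806 FPKM in COPD lungs and at 7.67, 11.8, 9.76, 10.4 and 8.48 FPKM in control lungs. WDD libraries again lay between the others without overlap. It fell by 2.32 ± 0.15 in COPD against control lungs (adjusted p = 4.88e-09, limma), rose by 1.17 ± 0.15 in WDD against COPD lungs (adjusted p = 1.17e-05, limma) and fell by 1.15 ± 0.15 in WDD against control lungs (adjusted p = 6.38e-05, limma). Its close relative Slc1a5, the main glutamine importer of dividing cells, averaged 7.67 ± 0.874 FPKM in WDD, 8.18 ± 4.18 FPKM in COPD and 11.2 ± 1.04 FPKM in control lungs. The fall of Slc1a5 by 0.51 ± 0.23 in COPD against control lungs was near the threshold (adjusted p = 0.0484, limma), and turned to 0.33 after scaling by median of ratios and to 0.37 with quantiles, neither of them called. That call also ended when any 1 of 8 libraries was left out, COPD 1 among them (-0.37).

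Slc38a2, the sodium-coupled carrier of small neutral amino acids that cells raise when starved of amino acids, was among the most abundant of the genes. It stood at 67.0, 54.7, 71.4, 57.1 and 54.1 FPKM in WDD lungs, at 37.7, 81.9, 73.9, 83.8 and 63.9 FPKM in COPD lungs and at 76.5, 61.5, 79.6, 75.0 and 72.4 FPKM in control lungs. The groups overlapped, COPD 1 was lowest, and no comparison passed. After median-of-ratios scaling Slc38a2 was higher in COPD than in control lungs, at 0.78 (adjusted p = 0.000234, limma), and lower in WDD than in COPD lungs, at -0.76 (adjusted p = 0.000576, limma). The difference between WDD and COPD lungs was also called under quantile normalisation (-0.40), after scaling without mitochondrially encoded genes (-0.47) and without COPD 1 (-0.31). As a share of the summed FPKM of the 39 genes, Slc38a2 held 13.5% ± 1.89 in WDD, 18.0% ± 1.98 in COPD and 10.3% ± 1.35 in control lungs. Slc3a2 held 20.5% ± 1.02 in WDD, 29.8% ± 8.75 in COPD and 18.2% ± 1.22 in control lungs. The sum averaged 454 FPKM in WDD, 379 FPKM in COPD and 711 FPKM in control lungs, so a share can rise without the level. Slc38a2 too is given by library although outside the rule.

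The other Slc38 genes fell in COPD against control lungs on the deposited scale. Slc38a1, a glutamine importer, fell by 0.98 ± 0.18, with values of -0.32 with FPKM scaled by median of ratios and 0.08 with quantiles, neither called. Slc38a6 and Slc38a10 fell by 1.14 ± 0.24 and by 1.62 ± 0.16, and rose by 0.77 ± 0.24 and 0.84 ± 0.16 in WDD against COPD lungs. The fall of Slc38a6 was not called after median-of-ratios scaling (-0.42) or under quantile normalisation (-0.11), and its rise was called in none of the 3 other scalings (0.13 to 0.49). The rise of Slc38a10 was not called after median-of-ratios scaling (0.23). Slc38a7 and Slc38a9 sit on lysosomes, where Slc38a7 exports glutamine and asparagine and Slc38a9 reports arginine to the growth kinase complex mTORC1. They fell by 0.84 ± 0.23 and by 1.37 ± 0.18 in COPD against control lungs, where Slc38a7 had -0.05 with FPKM scaled by median of ratios and 0.16 with quantiles and Slc38a9 had -0.34 with quantiles, none of them called. Slc38a9 averaged 1.96 ± 0.321 FPKM in WDD, 1.11 ± 0.578 FPKM in COPD and 4.28 ± 0.427 FPKM in control lungs.

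The carriers of acidic amino acids, which import glutamate and aspartate, fell in COPD against control lungs. Slc1a1, which also takes up cysteine, averaged 13.4 ± 2.75 FPKM in WDD, 12.4 ± 11.5 FPKM in COPD and 20.03 ± 1.11 FPKM in control lungs, and Slc1a3 averaged 4.71 ± 0.402 FPKM in WDD, 5.62 ± 5.55 FPKM in COPD and 9.32 ± 1.41 FPKM in control lungs. Slc1a1 fell by 0.95 ± 0.33 and Slc1a3 fell by 0.91 ± 0.31 in COPD against control lungs, but both calls ended in 2 other scalings. Slc1a1 had -0.08 and Slc1a3 had -0.10 with FPKM scaled by median of ratios, and they had -0.22 and 0.04 with quantiles. In both genes COPD 5 stood above every control library and the other COPD libraries stood below every control library. Without COPD 5 these values were -1.36 and -1.31, and the rises in WDD against COPD lungs, 0.80 and 0.46, were then called. Slc1a2 and Slc1a7, known best from brain and retina, fell by 1.12 ± 0.20 and by 0.93 ± 0.16, at mean levels of 0.0684 and 0.464 FPKM in COPD and 1.40 and 1.76 FPKM in control lungs. With quantiles these values were -0.39 for Slc1a2 and -0.05 for Slc1a7 and were not called. Slc1a2 was listed at 0 in 3 COPD libraries. Both Slc1a2 and Slc1a7 passed the level filter only through the WDD and control groups.

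In the Slc6 family the taurine carrier Slc6a6 differed from the others. It stood at 6.23, 6.53, 5.25, 4.09 and 3.62 FPKM in WDD lungs, at 4.38, 4.13, 4.19, 6.08 and 4.68 FPKM in COPD lungs and at 14.1, 33.6, 39.3, 42.0 and 48.0 FPKM in control lungs. Both exposed groups lay below every control library and overlapped each other, and control 1 was the lowest control. Slc6a6 fell by 2.58 ± 0.26 in COPD (adjusted p = 2.15e-07, limma) and by 2.49 ± 0.26 in WDD against control lungs (adjusted p = 2.11e-05, limma). In WDD against COPD lungs it had 0.09 ± 0.26 and did not pass. Across the 4 scalings the falls against control ranged from -2.58 to -1.74 in COPD and from -2.61 to -2.20 in WDD lungs.

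The monoamine carriers fell in COPD lungs and were higher in WDD lungs. Slc6a4, which clears serotonin, stood at 7.54, 8.40, 6.80, 9.67 and 11.9 FPKM in WDD lungs, at 0.417, 2.60, 2.50, 1.61 and 1.94 FPKM in COPD lungs and at 12.3, 18.5, 11.5, 11.6 and 13.3 FPKM in control lungs. COPD libraries lay below all others. It fell by 2.41 ± 0.23 in COPD against control lungs (adjusted p = 1.39e-07, limma) and rose by 1.86 ± 0.23 in WDD against COPD lungs (adjusted p = 7.07e-06, limma). Slc6a2, which clears noradrenaline, stood at 5.34, 6.31, 5.20, 8.42 and 8.08 FPKM in WDD lungs, at 0.749, 2.41, 3.27, 2.08 and 0.479 FPKM in COPD lungs and at 11.4, 12.9, 7.52, 11.2 and 13.0 FPKM in control lungs. It fell by 2.22 ± 0.26 (adjusted p = 1.17e-06, limma) and rose by 1.54 ± 0.26 (adjusted p = 0.00011, limma) in the same comparisons, again with all COPD libraries below all others. Both differences between WDD and control lungs, -0.55 ± 0.23 and -0.67 ± 0.26, did not pass. After scaling without mitochondrially encoded genes both were called, at -0.69 for Slc6a4 and -0.81 for Slc6a2. Leaving out COPD 1 and COPD 5 together they were called too. Neither was called after median-of-ratios scaling or under quantile normalisation. Both genes are known from lung endothelium. Of its 11 tested markers, 9 fell in COPD against control lungs and 10 rose in WDD against COPD lungs, with medians of -2.50 and 1.94. Of all genes 66.4% fell and 57.1% rose in these comparisons, with medians of -0.81 and 0.54. Among the markers, Ace and Kdr, chosen for large changes, fell by 3.73 ± 0.24 and by 2.98 ± 0.22 in the first comparison. They rose by 2.47 ± 0.24 and 2.19 ± 0.22 in the second. The part of endothelial cells in the values of Slc6a4 and Slc6a2 was not tested.

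The creatine carrier Slc6a8 stood at 10.5, 11.7, 8.29, 9.14 and 8.91 FPKM in WDD lungs, at 1.98, 3.23, 2.92, 3.29 and 4.48 FPKM in COPD lungs and at 13.6, 22.1, 16.8, 18.3 and 14.6 FPKM in control lungs. The groups did not overlap, with WDD libraries in the middle. Slc6a8 fell by 2.12 ± 0.17 in COPD against control lungs (adjusted p = 2.50e-08, limma), rose by 1.37 ± 0.17 in WDD against COPD lungs (adjusted p = 6.87e-06, limma) and fell by 0.75 ± 0.17 in WDD against control lungs (adjusted p = 0.00275, limma). The glycine carrier Slc6a9 averaged 9.98 ± 1.55 FPKM in WDD, 4.47 ± 1.54 FPKM in COPD and 16.6 ± 4.40 FPKM in control lungs, and fell by 1.69 ± 0.20 and rose by 1.04 ± 0.20 in the comparisons of COPD with control and of WDD with COPD lungs. The rise of Slc6a9 was not called under quantile normalisation (0.42). The betaine carrier Slc6a12 fell by 0.53 ± 0.20 in COPD against control lungs, and was called in none of the 3 other scalings, with values from -0.40 to 0.41. Slc6a16, an orphan member, fell by 1.35 ± 0.27, which was not called under quantile normalisation (-0.42). It passed the level filter only through the WDD and control groups. The proline carrier Slc6a20 and the broad neutral and cationic carrier Slc6a14 passed in no comparison, and their COPD libraries spread from 0.949 to 21.0 FPKM and from 8.12 to 76.0 FPKM.

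Of the Slc36 carriers, Slc36a4 stood at 3.29, 2.53, 1.13, 1.75 and 1.93 FPKM in WDD lungs, at 0.463, 0.720, 0.766, 0.937 and 0.612 FPKM in COPD lungs and at 5.63, 9.11, 9.49, 8.27 and 9.91 FPKM in control lungs. WDD libraries lay between the others without overlap, but Slc36a4 passed the level filter only through the WDD and control groups. Slc36a4, which takes proline and tryptophan, fell by 2.46 ± 0.19 in COPD against control lungs (adjusted p = 1.36e-08, limma), rose by 0.85 ± 0.19 in WDD against COPD lungs (adjusted p = 0.000967, limma) and fell by 1.62 ± 0.19 in WDD against control lungs (adjusted p = 2.79e-05, limma). The rise was not called under quantile normalisation (0.24, adjusted p = 0.263, limma). Slc36a1, which releases small amino acids from lysosomes, averaged 0.567 ± 0.325 FPKM in COPD and 4.85 ± 1.12 FPKM in control lungs. It too passed the level filter only through the WDD and control groups. Slc36a1 fell by 1.90 ± 0.18 in COPD and by 1.53 ± 0.18 in WDD against control lungs. In WDD against COPD lungs it had 0.37 ± 0.18, which did not pass.

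The Slc43 genes all fell in COPD against control lungs on the deposited scale. Slc43a3, the purine base carrier, averaged 51.5 ± 15.1 FPKM in WDD, 30.5 ± 8.89 FPKM in COPD and 92.4 ± 16.3 FPKM in control lungs, and fell by 1.60 ± 0.22. It rose by 0.74 ± 0.22 in WDD against COPD lungs, which was called in none of the 3 other scalings (0.10 to 0.39). Slc43a1 and Slc43a2, which carry large neutral amino acids without sodium, fell by 1.15 ± 0.21 and by 0.99 ± 0.24. These falls were not called after median-of-ratios scaling (-0.41 for Slc43a1 and -0.18 for Slc43a2) or under quantile normalisation (-0.11 and -0.05). Slc43a1 rose by 0.84 ± 0.21 in WDD against COPD lungs, where Slc43a2 had 0.27 ± 0.24 and did not pass. The rise of Slc43a1 was 0.35 with FPKM scaled by median of ratios and 0.21 with quantiles, neither called.

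**Figure D4:**
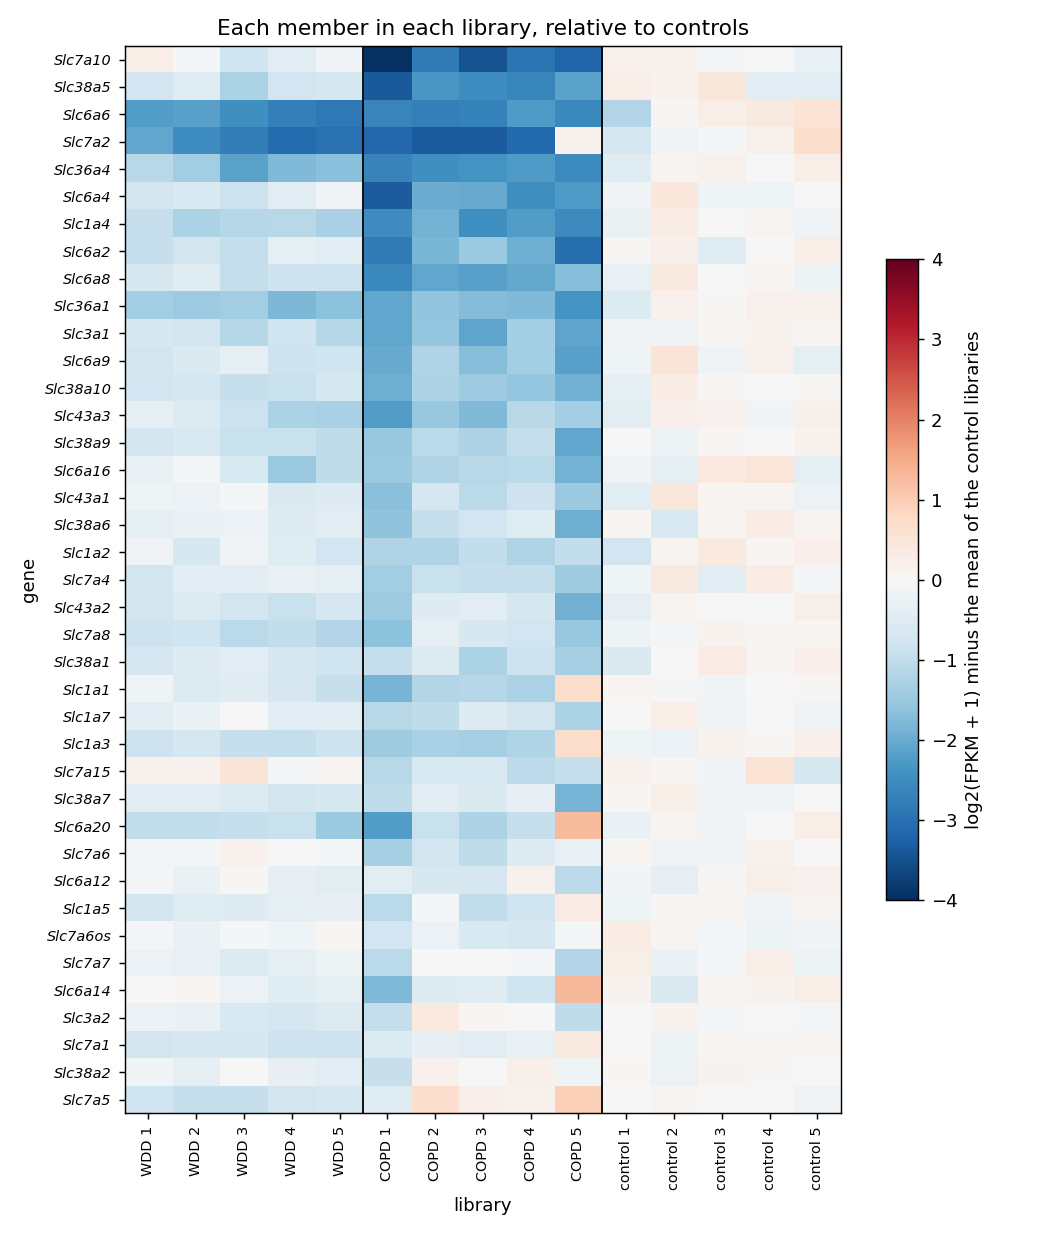
Level of each of the 39 genes (rows) in each library (columns: WDD, COPD, control), as log2(FPKM + 1) minus the mean of the control libraries, blue for lower and red for higher. COPD libraries are bluest for Slc7a10 and Slc38a5, Slc6a6 and Slc7a2 are blue in WDD libraries too, and COPD 5 differs from the other COPD libraries in Slc7a2, Slc1a1, Slc1a3, Slc6a20 and Slc6a14.

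COPD 5 stood apart from the other COPD libraries, being the highest of the 5 in 12 of the 39 genes and the lowest in 16. COPD 1 was the highest in none and the lowest in 21. Slc6a14 stood at 76.0 FPKM in COPD 5 and at 8.12 to 21.3 FPKM in COPD 1 to 4, and Slc6a20 at 21.0 FPKM against 0.949 to 3.94 FPKM. Without COPD 5 both fell in COPD against control lungs, Slc6a14 by 0.89 (adjusted p = 0.00273, limma) and Slc6a20 by 1.33 (adjusted p = 8.32e-05, limma). Slc7a1 then fell too, by 0.41 (adjusted p = 0.00687, limma). In the same library the airway markers summed to 14616 FPKM, against 2014 to 13210 FPKM in the other 4, the alveolar type 1 markers to 2036 against 736 to 1577 FPKM, the endothelial markers to 366 against 370 to 1030 FPKM and the T cell markers to 27.7 against 38.3 to 76.1 FPKM. Their part in these values was not tested.

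Genes around the carriers gave mixed counts. Of 20 tested genes of the ATF4 amino acid response, 7 rose and 6 fell in COPD against control lungs, with a median of 0.22. Of all genes 8.23% rose and 66.4% fell, with a median of -0.81. In WDD against COPD lungs 4 of the 20 rose and 7 fell, against 57.1% and 6.63% of all genes. After median-of-ratios scaling 13 of the 20 were higher and 3 lower in the first comparison. In the second, 2 were higher and 11 lower. Cebpb, a factor that joins ATF4 on such elements, rose by 2.63 ± 0.37 in COPD against control lungs, and the folate enzyme Mthfd2 rose by 1.05 ± 0.17. Vldlr, a lipoprotein receptor, and Ddit4, an inhibitor of mTORC1, fell by 2.36 ± 0.22 and by 2.38 ± 0.30. Of 20 genes of amino acid sensing by mTORC1, 16 fell and none rose in COPD against control lungs, and 16 rose and none fell in WDD against COPD lungs. The medians, -0.95 and 0.64, lay near those of all genes, -0.81 and 0.54, of which 66.4% fell and 57.1% rose. After median-of-ratios scaling 5 of the 20 were higher and 7 lower in COPD against control lungs, and 4 higher and 2 lower in WDD against COPD lungs. The leucine and stress sensors Sesn1 and Sesn3 fell by 2.02 ± 0.16 and by 1.87 ± 0.15, the arginine sensor Castor1 by 1.99 ± 0.20 and the mTORC1 inhibitor Tsc1 fell by 2.004 ± 0.19.

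Enzymes that use the carried amino acids were tested as well. Of 13 genes of arginine and polyamine metabolism, 3 rose and 3 fell in COPD against control lungs, against 8.23% and 66.4% of all genes, and after median-of-ratios scaling 8 were higher and 1 lower. Nos2, the inducible nitric oxide synthase, averaged 0.0967 ± 0.117 FPKM in WDD, 8.95 ± 13.3 FPKM in COPD and 0.201 ± 0.0674 FPKM in control lungs. It rose by 2.34 ± 0.45 in COPD against control lungs. At these levels Nos2 passed the level filter only through its COPD libraries, so the filter itself fixed this direction. The SD above the mean shows that the COPD libraries differed widely. The polyamine enzyme Sat1 rose by 0.99 ± 0.20, and Oat, which turns ornithine towards glutamate, and Ass1, which makes argininosuccinate, fell by 1.46 ± 0.14 and by 1.09 ± 0.26, of which Ass1 was not called after median-of-ratios scaling (-0.23). Of 7 genes of branched-chain and tryptophan breakdown, 1 rose and 5 fell, against 8.23% and 66.4% of all genes. After median-of-ratios scaling 2 of the 7 were higher and 1 lower. The one that rose was Bcat1, the cytosolic transaminase of leucine, isoleucine and valine, at 3.61 ± 1.23 FPKM in WDD, 64.4 ± 17.0 FPKM in COPD and 6.25 ± 1.67 FPKM in control lungs. It rose by 3.16 ± 0.24 in COPD against control lungs (adjusted p = 1.24e-08, limma) and fell by 3.83 ± 0.24 in WDD against COPD lungs (adjusted p = 9.23e-09, limma). The mitochondrial transaminase Bcat2 fell by 1.86 ± 0.18 and the dehydrogenase subunit Bckdha and kinase Bckdk by 1.19 ± 0.19 and by 1.12 ± 0.15 in COPD against control lungs. After median-of-ratios scaling Bckdha (-0.30) and Bckdk (-0.23) were not called.

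Of 11 genes of glutamine, glutamate and proline metabolism, 1 rose and 9 fell in COPD against control lungs, with a median of -0.85 beside -0.81 for all genes, of which 66.4% fell. After median-of-ratios scaling 2 were higher and 2 lower. Ggt1, which breaks down glutathione outside the cell, rose by 1.89 ± 0.20, whereas the aspartate transaminase Got2, the glutaminase Gls2 and Oplah, which recycles oxoproline to glutamate, fell by 1.49 ± 0.11, by 1.12 ± 0.18 and by 1.24 ± 0.20. The fall of Gls2 was not called after median-of-ratios scaling (-0.29). Of 15 other carriers of amino acids and peptides and their partners, 1 rose and 12 fell, against 8.23% and 66.4% of all genes. Their median was -1.27, against -0.81 for all genes. After median-of-ratios scaling 2 of the 15 were higher and 9 lower. The peptide carrier Slc15a2 fell by 3.23 ± 0.21. Bsg, a chaperone of carriers, fell by 2.37 ± 0.21, the mitochondrial aspartate and glutamate carrier Slc25a13 by 1.74 ± 0.17 and Slc25a44, which takes branched-chain amino acids into mitochondria, by 1.60 ± 0.18. Of 20 cytosolic aminoacyl-tRNA synthetases, 3 rose, 4 fell and 13 did not pass, against 8.23% higher and 66.4% lower among all genes. Their median was -0.12, against -0.81 for all genes. After median-of-ratios scaling 18 of the 20 were higher and none lower. Vars1, for valine, rose by 0.61 ± 0.16, and Iars1, Lars1 and Farsa, for isoleucine, leucine and phenylalanine, fell by 1.09 ± 0.15, by 0.44 ± 0.11 and by 0.49 ± 0.12. After median-of-ratios scaling Lars1 and Farsa were higher in COPD lungs, at 0.45 and 0.42, and Iars1 had -0.30 and was not called.

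The other 22 genes whose names matched did not pass the level filter. Of them 21 reached 1 FPKM in no library and Slc6a5 and Slc6a18 were at 0 in every library. Slc38a4, a carrier of liver and muscle, was above 1 FPKM in control 4 alone, at 1.04 FPKM. The highest value in any library was 0.812 FPKM for Slc36a3, 0.538 FPKM for Slc6a17, 0.504 FPKM for Slc38a8 and 0.458 FPKM for Slc7a9. It lay below 0.45 FPKM for Slc1a6, Slc36a2, Slc38a3, Slc38a11, Slc6a3, Slc6a7, Slc6a11, Slc6a13, Slc6a15, Slc6a19, Slc7a3, Slc7a12, Slc7a13 and Slc7a14, among which are the brain carrier of dopamine and the kidney carrier of neutral amino acids.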

How the data were processed

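Lung RNA was made into libraries with TRIzol and the NEBNext Ultra RNA kit, per the labels' protocols. The submitters' processing notes name cutadapt, HISAT2, StringTie and build Rnor_6.0, while the sources used here give no versions, annotation release or strand use. The deposited values are FPKM computed by the authors, used here as log2(FPKM + 1). Genes with at least 1 FPKM in at least 5 libraries, 13172 of 22250, were fitted in all 15 libraries by group with limma 3.58.1 (trended empirical Bayes) in R 4.3.3. Tests were two-sided, with Benjamini-Hochberg adjustment over the 13172 genes and calls at an adjusted p under 0.05. Fold changes on this scale understate changes of low genes. Read totals were not analysed here. Steps between low FPKM values placed depth relative to control 2 at 0.879 in COPD 4, the lowest, to 1.11 in COPD 2, the highest.

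The genes, lists, tests and alternatives were chosen with earlier results of these data known. Values in every library are given for genes called without overlap of groups, up to the 6 largest changes in each direction in COPD against control and in WDD against COPD, and for 3 further genes chosen after their values were seen (Slc7a2, Slc3a2 and Slc38a2). List genes named are the 4 of lowest p in COPD against control. The script was tested on simulated data. Of 15 pairs of libraries with the same replicate number, 1 had a correlation of residuals above 0.1, so the numbers were not taken to pair libraries. The results of the 39 genes were recomputed with pseudocounts of 0.1 and 0.5, without the level filter, with genes averaging 5 FPKM or more, with FPKM scaled by median of ratios, with quantile normalisation, with scaling to the FPKM sum without mitochondrially encoded genes, with only the 2 groups compared, with library weights, with a replicate block, and leaving out each library. Leaving out COPD 1 and COPD 5 together was chosen after seeing the data, as was recomputing the gene lists under the 3 other scalings. The light-chain shares were not recomputed. Promoter sequences are those of RefSeq on GRCr8, matched by symbol. Figures and tables used Python 3.11.15 with pandas 2.3.3, numpy 2.4.6 and matplotlib 3.10.9.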

Additional observations from a re-analysis of the deposited data

Results flagged for a closer look

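Each of the 39 genes was examined in each of the 3 groups for a library whose gap to its nearest neighbour, on the log2(FPKM + 1) scale, exceeded 0.71 of the range of the group, which chance gives in about 1 in 20 groups. This held in 13 of 117 cases. In COPD 5 it held for 4 genes, with the highest values of the group: 32.8 FPKM for Slc1a1, 15.5 FPKM for Slc1a3, 3.07 FPKM for Slc7a1 and 15.8 FPKM for Slc7a2. The other COPD libraries stood at 4.75 to 8.58 FPKM for Slc1a1, 2.80 to 3.49 FPKM for Slc1a3, 1.16 to 1.56 FPKM for Slc7a1 and 0.505 to 0.747 FPKM for Slc7a2. In WDD libraries, Slc6a20 was low in WDD 5 (2.27 FPKM), Slc7a4 low in WDD 1 (1.05 FPKM) and Slc7a6 high in WDD 3 (18.6 FPKM). In control libraries, Slc1a2 and Slc36a1 were low in control 1 (0.355 and 2.89 FPKM), Slc38a6 and Slc6a14 low in control 2 (4.21 and 19.95 FPKM), Slc3a2 high in control 2 (141 FPKM) and Slc6a2 low in control 3 (7.52 FPKM).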

How the results depend on the processing

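Counts of the 39 genes moved by over 1.5 times as follows. In COPD against control lungs (none higher and 32 lower), scaling by median of ratios gave 3 higher and 20 lower, 2 higher and 14 lower under quantile normalisation, 1 higher after scaling to the FPKM sum without mitochondrially encoded genes, and 19 of 25 lower at a mean FPKM of at least 5. Leaving out single libraries gave 0 to 1 higher, and leaving out COPD 1 and COPD 5 together gave 1 higher. In WDD against COPD lungs (21 higher and 2 lower), scaling by median of ratios gave 11 higher and 6 lower, 8 higher and 4 lower under quantile normalisation, 4 lower after scaling to the FPKM sum without mitochondrially encoded genes, 11 higher and 1 lower at a mean FPKM of at least 5, and 5 lower without COPD 1 and COPD 5. Single libraries left 2 to 3 lower there. In WDD against control lungs (19 lower), 11 were lower at a mean FPKM of at least 5, 11 under quantile normalisation, 33 with library weights and 29 without COPD 1 and COPD 5. At a mean FPKM of at least 5, only 25 of the genes were tested. Of the 32 calls of lower levels in COPD against control lungs, 20 were kept after scaling by median of ratios and 14 with quantiles, and of the 21 calls of higher levels in WDD against COPD lungs, 11 and 8. The cause of the other shifts was not tested. Beside them, the median of all genes in COPD against control lungs was -0.81 as deposited, -0.05 after median-of-ratios scaling, -0.02 under quantile normalisation and -0.65 after scaling to the sum without mitochondrially encoded genes.

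In settings other than single libraries, log2 fold changes turned in sign in 21 cases called in at least 1 of the fits compared, and in 61 cases called in neither. In COPD against control lungs after median-of-ratios scaling these were Slc38a2 (0.78), Slc3a2 (0.63), Slc7a6os (0.39), Slc1a5 (0.33) and Slc7a6 (0.0804). Under quantile normalisation they were Slc7a1 (0.75), Slc6a12 (0.41), Slc1a5 (0.37), Slc7a6os (0.36), Slc38a7 (0.16), Slc38a1 (0.0831), Slc1a3 (0.0408), Slc7a8 (0.0370) and Slc7a6 (0.0062). In WDD against COPD lungs they were Slc7a8 (-0.49), Slc7a7 (-0.47) and Slc7a6os (-0.22) after median-of-ratios scaling, Slc7a8 (-0.59), Slc7a6os (-0.13) and Slc38a9 (-0.0735) under quantile normalisation, and Slc7a8 (-0.37) without COPD 1 and COPD 5. Of 1170 values with single libraries left out, 1079 kept direction and call, 47 lost the call, 20 gained it, 24 turned in sign with a call in neither fit and none with a call. Calls were lost for Slc1a5 (8 libraries) and Slc6a12 (4) in COPD against control, for Slc7a6os (7) and Slc6a16 (5) in WDD against COPD, and for Slc1a3 (8), Slc7a4 (8), Slc43a2 (6) and Slc6a9 (1) in WDD against control lungs. Replicate numbers were not taken to pair libraries. The replicate block gave none higher and 32 lower in COPD against control lungs. It gave 20 higher and 2 lower in WDD against COPD lungs, and 19 lower in WDD against control lungs. Low genes are the least certain, since fragment counts behind values near 1 FPKM are not known here.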
